A study of Mus musculus with 13 samples.

Results

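Lpl, Angptl4, Lcat, Cyp7b1, Ptgds, Alox8 and Akr1c14 are 7 genes of lipid handling, read here in whole hippocampus of 13 mice. They were picked from 19938 measured genes for a difference between Kmt2d+/βGeo and wild-type mice over both experiments of the study. Their genotype differences are therefore given as a description, with no test. 6 of them encode enzymes, while Angptl4 encodes a secreted inhibitor of the enzyme made from Lpl. The array holds 1 probe set for each gene, so every member is described by 1 value per mouse.

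Lipids reach brain cells partly in lipoprotein particles. Lipoprotein lipase, encoded by Lpl, releases fatty acids from their triglycerides, and lecithin-cholesterol acyltransferase, encoded by Lcat, esterifies the cholesterol of high density particles. Cholesterol is turned over through oxysterols, which the hydroxylase Cyp7b1 inactivates, and reductases such as Akr1c14 act on steroids. Arachidonic acid feeds both the prostaglandins, of which Ptgds makes prostaglandin D2, and the products of lipoxygenases such as Alox8.

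The mice carried either 2 wild-type Kmt2d alleles or 1 βGeo allele (Kmt2d+/βGeo, a gene trap used as a model of Kabuki syndrome), on a C57BL/6J background, at 1 to 2 months of age and on standard chow. Experiment 1 held 4 wild-type and 3 heterozygous mice without injections. In experiment 2 the 3 wild-type and 3 heterozygous mice were given saline 3 times a day, as controls of other work. The labels give female for 12 mice and no known sex for wild-type replicate 3 of experiment 1, whose array had Xist at 4.81 against 10.70 to 11.48 on the others. The Y-linked genes Kdm5d, Uty and Eif2s3y were at 7.55, 8.83 and 8.14 there, against at most 4.83, 4.16 and 3.67 on the others. That array thus reads as male. All values are log2 intensities, so a difference of 1 is a doubling of the signal.

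Markers of the labelled tissue were present on every array, among them Prox1 of dentate granule cells at 8.21 to 10.28 and Wfs1 of CA1 pyramidal cells at 9.88 to 10.88 log2 units. Of the Kmt2d probe sets, 10432294 differed between the genotypes by -0.53 ± 0.08 (SE) and 10432298 by 0.07 ± 0.07. Experiment 1 had array medians of 6.74 to 6.90, below the 7.04 to 7.08 of experiment 2, and arrays of different experiments correlated less (0.936 to 0.958) than arrays of the same one (0.985 to 0.998). Wild-type replicate 2 of experiment 1 had striatal markers at 2.25 log2 units above their mean over all arrays, against -0.43 to -0.04 on the other arrays. Results are therefore also given without single arrays where that matters.

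Over both experiments 5 of the genes stood higher in heterozygous mice and 2 stood lower. Lpl had the largest difference upwards, at 0.49 ± 0.12 log2 units (SE, 6 heterozygous and 7 wild-type mice), or 140.0% of the wild-type level. Cyp7b1 followed at 131.2%, Alox8 at 127.0%, Akr1c14 at 124.1% and Lcat at 121.8%. Ptgds was at 72.1% and Angptl4 at 85.2% of the wild-type level. With limma none of the 19938 genes had an adjusted p under 0.05 in this comparison (0% called), while 5.25% had an unadjusted p under 0.05. The median difference of all genes was 0.002, and 90% of genes lay between -0.15 and 0.14. All 7 members lay outside that range, as a choice by this difference brings about.

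**Figure D1:**
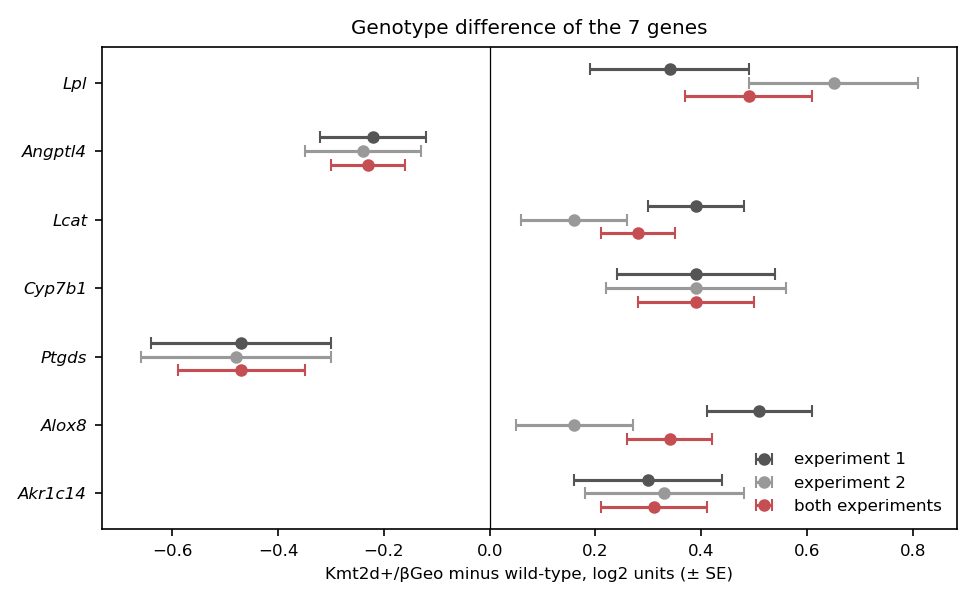
Difference between heterozygous and wild-type mice in log2 units (horizontal axis) for each gene, in experiment 1, in experiment 2 and over both; points are limma estimates and bars their standard errors. Lpl, Lcat, Cyp7b1, Alox8 and Akr1c14 lie above 0 and Angptl4 and Ptgds below 0 in each experiment, with Lcat and Alox8 closer to 0 in experiment 2 (both at 0.16).

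RefSeq's promoter table (GRCm38.p6) held entries for 4 of the genes: Lcat, Ptgds, Alox8 and Akr1c14. Shown are the 150 bases before the annotated start of 3 genes, 1 that stood lower in heterozygous mice (Ptgds) and 2 whose heterozygous mice of experiment 1 all lay above the wild-type mice (Lcat and Alox8). Capitals mark matches to 7 motifs searched on both strands and chosen with the sequences in view: TATAAA (the TATA box), CCAAT (the box bound by NF-Y), GGGCGG (the GC box of Sp factors), CACGTG (the E-box of clock factors), AGGTCA (the nuclear receptor core motif), TGANTCA (the AP-1 site) and CAGGTG (the E-box of E proteins).
Ptgds (chr2:25469750-25469899, minus strand): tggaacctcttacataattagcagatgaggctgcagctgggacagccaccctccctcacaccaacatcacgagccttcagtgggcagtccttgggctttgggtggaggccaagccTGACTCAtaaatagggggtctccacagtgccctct
Lcat (chr8:105943403-105943552, minus strand): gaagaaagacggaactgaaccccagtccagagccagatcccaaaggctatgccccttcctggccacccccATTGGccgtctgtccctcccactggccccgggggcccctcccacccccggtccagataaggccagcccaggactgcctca
Alox8 (chr11:69197844-69197993, minus strand): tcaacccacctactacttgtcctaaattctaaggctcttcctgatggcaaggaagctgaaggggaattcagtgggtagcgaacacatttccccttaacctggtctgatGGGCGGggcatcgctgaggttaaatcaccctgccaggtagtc

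Each of the 3 windows held a different one of the motifs. Ptgds held TGANTCA, the pattern of AP-1 factors, 35 to 29 bases before the start, and 4.2% of all 32851 windows of this length hold it. Lcat held CCAAT on the opposite strand (24.5% of windows), 80 to 76 bases before its start. Alox8 held the GC box GGGCGG (28.6% of windows), 42 to 37 bases before its start. The Akr1c14 window held none of the 7. The TATA box (7.6% of windows), both E-boxes (4.3% for that of clock factors, 10.6% for that of E proteins) and the nuclear receptor core motif (8.6%) were in none of the 4 windows. GC content was 66.0% for Lcat, 56.0% for Ptgds, 51.3% for Alox8 and 43.3% for Akr1c14, against a median of 54.0% over all windows.

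Lpl and Angptl4 form an enzyme and inhibitor pair, and their genotype differences had opposite signs. In experiment 1 Lpl was 8.59, 8.87, 8.66 and 8.69 in wild-type mice and 9.01, 8.66 and 9.44 in heterozygous mice. In experiment 2 it was 7.51, 7.36 and 7.79 against 8.03, 8.24 and 8.36. The heterozygous mice of experiment 2 all lay above the wild-type mice, while in experiment 1 heterozygous replicate 2 lay within the wild-type range. The differences were 0.34 ± 0.15 in experiment 1 and 0.65 ± 0.16 in experiment 2 (SE). The value of experiment 1 leaned on single mice, since it was 0.13 without heterozygous replicate 3 and 0.53 without heterozygous replicate 2.

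Angptl4 was 6.81, 6.72, 6.88 and 6.72 in wild-type mice of experiment 1 and 6.62, 6.59 and 6.46 in heterozygous mice. The genotypes were apart there, with the heterozygous mice lower and a difference of -0.22 ± 0.10 (SE). In experiment 2 the values were 7.13, 6.78 and 6.92 against 6.91, 6.66 and 6.55, which overlap, with a difference of -0.24 ± 0.11. It was -0.15 without wild-type replicate 1 and -0.34 without heterozygous replicate 1. The wild-type mice of experiment 1 include 2 arrays with exactly tied values. Within groups, Lpl and Angptl4 deviated with r = -0.39 over 13 mice (exact permutation within groups, two-sided p = 0.208; Spearman's rho -0.42, exact p = 0.23).

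Lcat, made largely by astrocytes in brain, was 10.14, 10.12, 10.07 and 10.25 in wild-type mice of experiment 1 and 10.59, 10.51 and 10.52 in heterozygous mice. The groups did not overlap, with a difference of 0.39 ± 0.09 (SE). In experiment 2 it was 10.24, 10.001 and 10.29 against 10.43, 10.43 and 10.16. These overlap through heterozygous replicate 3, and the difference was 0.16 ± 0.10. It was 0.08 without wild-type replicate 2 and 0.25 without heterozygous replicate 3. The astrocyte list (14 genes) had 12 members above 0 and a median genotype difference of 0.071, and no member was called. Without wild-type replicate 2 of experiment 1 it had 9 above 0 and a median of 0.044. Its mean deviation ranged over 0.07 to 0.30 in wild-type and 0.23 to 0.31 in heterozygous mice of experiment 1, and over -0.33 to -0.28 and -0.36 to -0.22 in experiment 2. Within groups, Lcat and the astrocyte list correlated with r = 0.28 over 13 mice (exact permutation p = 0.387). The value was 0.03 in experiment 1 and 0.57 in experiment 2. The part of astrocyte content in the Lcat difference was not tested.

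Cyp7b1, the oxysterol hydroxylase, was 9.26, 9.14, 9.34 and 9.49 in wild-type mice of experiment 1 and 9.67, 9.66 and 9.76 in heterozygous mice, without overlap. In experiment 2 it was 8.56, 7.64 and 8.05 against 8.45, 8.56 and 8.41. Here the wild-type mice spread widely (SD 0.46, n = 3) and replicate 1 reached the highest heterozygous value. The differences were 0.39 ± 0.15 in experiment 1 and 0.39 ± 0.17 in experiment 2 (SE). Leaving out wild-type replicate 1 of experiment 2 gave 0.63 and leaving out wild-type replicate 2 gave 0.17.

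Dentate granule cells are known for high Cyp7b1, and their markers ran with it within groups, though not past the threshold after adjustment. Of 14 markers 12 were above 0 in the genotype comparison, with a median of 0.178 and none called. The mean deviation of the list was -0.19 to 0.29 in wild-type and 0.40 to 0.47 in heterozygous mice of experiment 1. In experiment 2 it was -0.54 to -0.18 and -0.39 to -0.24. The heterozygous range lay within the wild-type range there. The part of granule cell content in the Cyp7b1 difference was not tested. Within groups, Cyp7b1 and the list correlated with r = 0.72 over 13 mice (exact permutation p = 0.0272; rho 0.73, exact p = 0.0328), with 0.84 in experiment 1 and 0.82 in experiment 2. Without the 2 arrays farthest on the Cyp7b1 axis r was 0.75. It was 1 of 84 pairs of gene and marker list, and the adjusted p was 0.326 (0.564 for rho). The myelin list (r = -0.84, described at the end) and the circadian clock list lay further from 0 with Cyp7b1. For the clock list r was -0.77 (exact permutation p = 0.0367, adjusted 0.385, rho -0.42 with exact p = 0.28). In whole tissue, a different number of granule cells and a different amount of RNA per cell cannot be told apart.

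**Figure D2:**
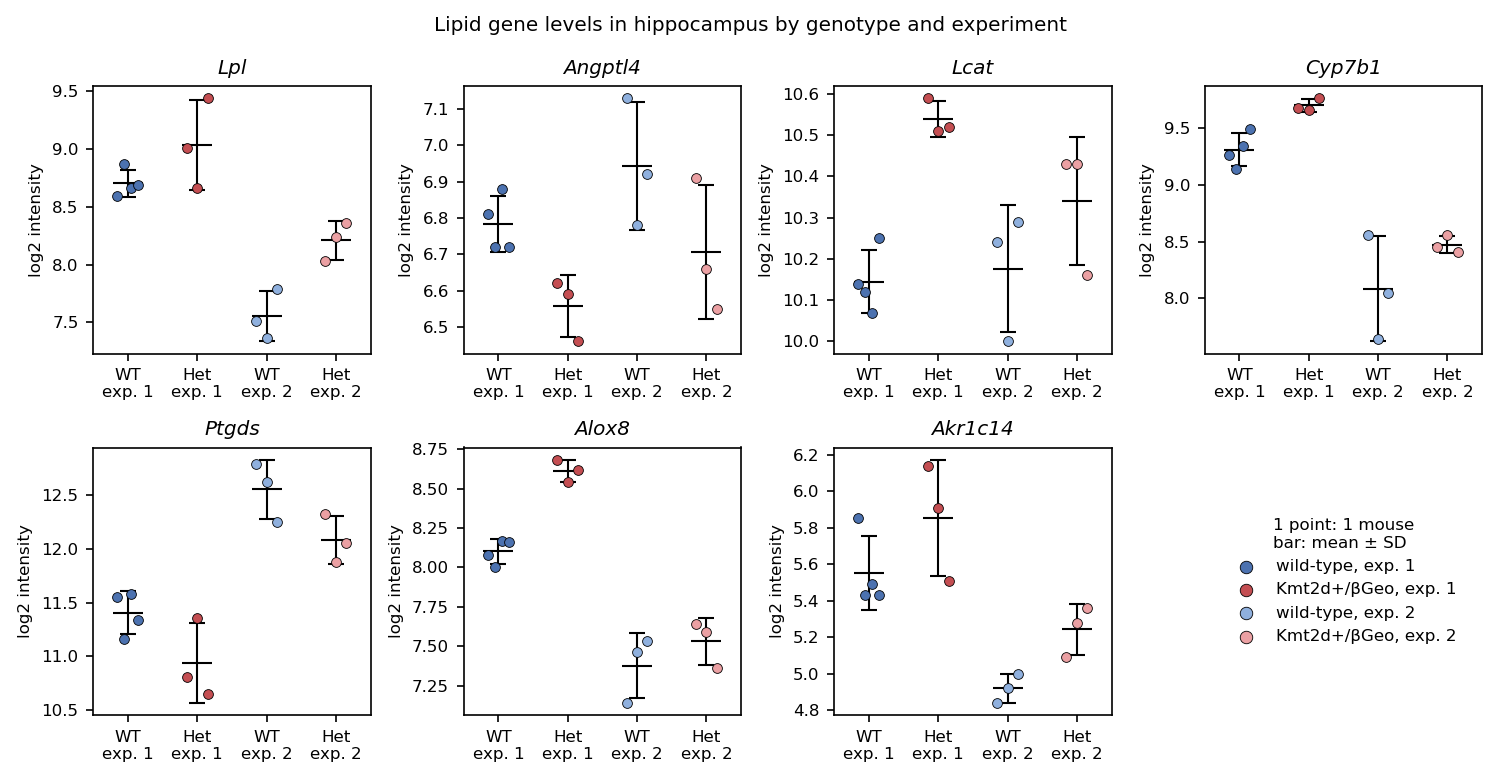
Log2 intensity of each gene (vertical axis, a range of its own per panel that does not start at 0) in the 4 groups; each point is 1 mouse and the bars give mean ± SD. Lpl, Cyp7b1, Alox8 and Akr1c14 sit lower in both genotypes of experiment 2 than in the same genotype of experiment 1, and Ptgds sits higher.

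Ptgds, lipocalin-type prostaglandin D synthase, is known as a product of leptomeninges, choroid plexus and oligodendrocytes. It was 11.55, 11.16, 11.58 and 11.34 in wild-type mice of experiment 1 and 10.81, 11.36 and 10.65 in heterozygous mice. In experiment 2 it was 12.79, 12.62 and 12.25 against 12.32, 11.88 and 12.05. The genotypes overlapped in both experiments, through heterozygous replicate 2 in experiment 1 and wild-type replicate 3 in experiment 2. The differences were -0.47 ± 0.17 and -0.48 ± 0.18 (SE). With single arrays left out they ranged from -0.68 (without heterozygous replicate 2) to -0.32 (without heterozygous replicate 3) in experiment 1 and from -0.63 (without wild-type replicate 3) to -0.36 (without wild-type replicate 1) in experiment 2.

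Markers of leptomeninges and fibroblasts ran with Ptgds within groups, though not past the threshold after adjustment. All 18 were below 0 in the genotype comparison, with a median of -0.135 against 0.002 for all genes, and none was called. The list's mean deviation was -0.45 to 0.31 in wild-type and -0.27 to 0.16 in heterozygous mice of experiment 1, and -0.16 to 0.30 and -0.27 to -0.03 in experiment 2. Within groups Ptgds and the list correlated with r = 0.81 over 13 mice (exact permutation p = 0.00135; rho 0.86, exact p = 0.00135), 0.79 in experiment 1, 0.90 in experiment 2 and 0.83 without the 2 arrays farthest on the Ptgds axis. Over the 84 pairs the adjusted p was 0.113 for both. Choroid plexus markers had 16 of 17 below 0, a median of -0.237, and r = 0.55 with Ptgds (exact permutation p = 0.0584, adjusted 0.45; rho 0.57, exact p = 0.0762). Their mean deviation was -0.24 to 1.09 in wild-type and -0.32 to -0.01 in heterozygous mice of experiment 1. In experiment 2 it was -1.20 to 0.15 against -0.65 to 0.27. There the heterozygous range began and ended higher, with overlap, which is opposite to the pooled direction of the list. These ranges rest on 3 mice per group. The leptomeningeal median was -0.078, with 15 of 18 below 0, without wild-type replicate 1 of experiment 2, and -0.267 without wild-type replicate 2 of experiment 1. The choroid median was -0.506 without wild-type replicate 3 of experiment 2, -0.407 without wild-type replicate 2 and -0.138 without wild-type replicate 3 of experiment 1. The oligodendrocyte list and Ptgds had r = -0.19 (exact permutation p = 0.59, adjusted 0.881; rho -0.22, exact p = 0.55), 0.35 in experiment 1 and -0.58 in experiment 2. The part of these tissues in the Ptgds difference was not tested.

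Alox8, a lipoxygenase, was 8.08, 8.002, 8.17 and 8.16 in wild-type mice of experiment 1 and 8.68, 8.54 and 8.62 in heterozygous mice. The groups lay apart, with a difference of 0.51 ± 0.10 (SE). In experiment 2 it was 7.14, 7.46 and 7.53 against 7.64, 7.59 and 7.36, which overlap, and the difference was 0.16 ± 0.11. It was 0.04 without wild-type replicate 1 of that experiment and at most 0.24 with any other single array left out. Experiment 2 minus experiment 1 was -0.36 ± 0.15 for the Alox8 difference, and -0.48 to -0.27 with single arrays left out. For Lpl it was 0.32 ± 0.22, but 0.13 without heterozygous replicate 2 and 0.52 without heterozygous replicate 3 of experiment 1. For the others it was -0.22 ± 0.14 (Lcat), 0.03 ± 0.20 (Akr1c14), -0.015 ± 0.15 (Angptl4), -0.006 ± 0.25 (Ptgds) and -0.002 ± 0.23 (Cyp7b1). Whether a gene was picked depended partly on this quantity, so it was not tested.

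Alox8 deviated within groups together with markers of CA1 and CA3 pyramidal cells, with r = 0.82 over 13 mice (exact permutation p = 0.0162; rho 0.79, exact p = 0.0181), 0.48 in experiment 1 and 0.91 in experiment 2. The adjusted p over the 84 pairs was 0.272 (0.564 for rho), and r was 0.65 without the 2 arrays farthest on the Alox8 axis. In the genotype comparison 9 of the 14 pyramidal markers were above 0, with a median of 0.102 and none called. Their mean deviation was 0.21 to 0.29 in wild-type and 0.27 to 0.31 in heterozygous mice of experiment 1, and -0.39 to -0.23 against -0.33 to -0.28 in experiment 2.

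Akr1c14, a hydroxysteroid dehydrogenase of the aldo-keto reductases, was 5.85, 5.43, 5.49 and 5.43 in wild-type mice of experiment 1 and 6.14, 5.91 and 5.51 in heterozygous mice. These overlap, and the difference was 0.30 ± 0.14 (SE). It was 0.15 without heterozygous replicate 1 and 0.47 without heterozygous replicate 3. In experiment 2 all heterozygous mice, at 5.09, 5.28 and 5.36, lay above the wild-type mice at 4.84, 4.92 and 4.997, with a difference of 0.33 ± 0.15. The signal is dim, with 17.5% of genes lower in mean. The wild-type mice of experiment 1 hold 2 tied arrays.

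Counted over the 7 genes, the genotypes did not overlap for 4 in experiment 1 (Angptl4, Lcat, Cyp7b1 and Alox8) and for 2 in experiment 2 (Lpl and Akr1c14). Over all genes the shares without overlap were 7.22% and 9.48%. By limma's adjusted p 0.0201% of genes were called in experiment 1 and 0% in experiment 2. Since these genes were picked by the same contrast, nothing further is read from their counts. No member was without overlap in both experiments, and 0.321% of all genes were, in a common direction.

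The difference between the experiments played no part in the choice of the genes and was tested. Injections and everything else that set the experiments apart came together, so they cannot be told apart. With genotype in the model, Cyp7b1 fell 2.33-fold from experiment 1 to experiment 2 (-1.22 ± 0.11; limma adjusted p = 3.64e-08) and Lpl 2.00-fold (SE 0.12 log2 units; adjusted p = 7.71e-07). Alox8 fell 1.85-fold (-0.89 ± 0.08; adjusted p = 7.9e-08) and Akr1c14 1.54-fold (-0.62 ± 0.10; adjusted p = 2.26e-05). Ptgds rose 2.21-fold (1.15 ± 0.12; adjusted p = 2.65e-07). Angptl4 (0.16 ± 0.07; adjusted p = 0.0569) and Lcat (-0.08 ± 0.07; adjusted p = 0.33) did not pass.

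Most genes passed this test: 77.2% of all genes, 35.4% as lower and 41.8% as higher in experiment 2, against 5 of the 7 members (71.4%), 4 lower and 1 higher. A count near the background says little of these genes as a group. Their sizes were mostly inside the bulk as well, since 90% of all genes lay between -1.30 and 0.77. Ptgds lay outside that range, with 1.8% of genes higher. The direction of the 5 called genes was the same when every array was centred on its median, which moved the median difference of all genes from 0.07 to -0.17, and after quantile normalization of all arrays, which moved it to -0.05. Lcat passed under both, as lower with centring (-0.32; adjusted p = 0.00105) and as higher with quantile normalization (0.18; adjusted p = 0.0365), so no direction can be given for it. Angptl4 was at -0.09 with centring and -0.12 with quantile normalization, so it has none either. Of all genes called, 54.2% were higher in experiment 2, against 28.3% with centring, 41.0% with quantile normalization, 62.5% over every probe set, and 38.3% or 26.7% with the dimmest 30% or 50% of genes left out.

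**Figure D3:**
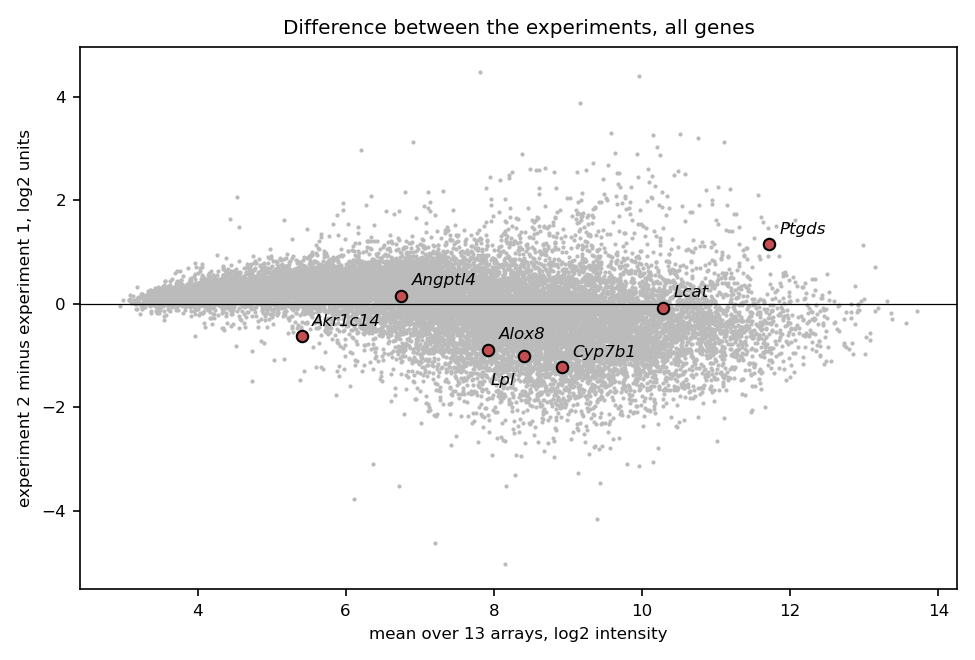
Experiment 2 minus experiment 1 in log2 units (vertical axis) against the mean log2 intensity over 13 arrays (horizontal axis) for 19938 genes in grey, with the 7 lipid genes in red. Cyp7b1, Lpl, Alox8 and Akr1c14 lie below 0, Ptgds lies above 0 at 1.15, and Angptl4 and Lcat lie near 0.

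The 5 genes also passed in each genotype alone. In wild-type mice the differences were -1.15 ± 0.15 for Lpl, -1.22 ± 0.15 for Cyp7b1, 1.15 ± 0.17 for Ptgds, -0.72 ± 0.10 for Alox8 and -0.63 ± 0.14 for Akr1c14 (limma adjusted p 5.32e-06 to 0.000768), where 69.3% of all genes passed, 37.3% as higher and 32% as lower. In heterozygous mice they were -0.83 ± 0.16, -1.22 ± 0.17, 1.14 ± 0.18, -1.08 ± 0.11 and -0.61 ± 0.15 in the same order (adjusted p 6.67e-07 to 0.00216), where 62.3% passed, 31% as higher and 31.3% as lower. Angptl4 was at 0.16 ± 0.10 in wild-type and 0.15 ± 0.11 in heterozygous mice, and Lcat at 0.03 ± 0.09 and -0.20 ± 0.10, none of them past the threshold.

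Ordered by level, Lpl, Cyp7b1, Alox8 and Akr1c14 ran alike: wild-type mice of experiment 2 were lowest, then heterozygous mice of experiment 2, wild-type and heterozygous mice of experiment 1. The order of the genotypes comes with the choice of the genes, and 35.4% of all genes were called lower in experiment 2. The shared order is therefore only a description. From heterozygous mice of experiment 2 to wild-type mice of experiment 1 the step was 0.49 for Lpl, 0.83 for Cyp7b1, 0.57 for Alox8 and 0.31 for Akr1c14. These groups did not overlap. How many of all genes had such a gap was not counted, and 77.2% of them were called between the experiments by limma's adjusted p. Ptgds ran the other way, from heterozygous mice of experiment 1 at 10.94 ± 0.37 (SD, n = 3) to wild-type mice of experiment 2 at 12.56 ± 0.28 (SD, n = 3), and its step between the experiments was 0.67 without overlap. For Angptl4 every pair of neighbouring groups overlapped. For Lcat the heterozygous mice of experiment 1, at 10.54 ± 0.04 (SD, n = 3), were clear of the next group and the other neighbours overlapped.

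Between mice of a group, none of the 21 pairs of the 7 genes had a correlation that passed after adjustment. With 13 mice this does not show that the genes varied apart. Lcat and Cyp7b1 had r = 0.58, Angptl4 and Cyp7b1 0.54 and Angptl4 and Lcat 0.52. Lpl and Ptgds had the correlation furthest from 0 of the 21 pairs. Mice with more Lpl than their group had less Ptgds, with r = -0.85 over 13 mice (exact permutation within groups, two-sided p = 0.00733; rho -0.88, exact p = 0.00424). It was -0.90 in experiment 1, -0.76 in experiment 2 and -0.76 without the 2 arrays farthest on the Lpl axis. Adjusted over the 21 pairs p was 0.154 (0.0891 for rho), so it did not pass. The next lowest p was that of Angptl4 and Ptgds, with r = 0.55 (exact permutation p = 0.0845, adjusted 0.81; rho 0.55, exact p = 0.118). Lpl also ran against the leptomeningeal list, with r = -0.64 (exact permutation p = 0.0125, adjusted 0.272, rho -0.71 with exact p = 0.0305). With the astrocyte list Lpl had r = -0.57 and the same p (exact permutation p = 0.0125, adjusted 0.272, rho -0.57 with exact p = 0.0336). Neither list passed after adjustment.

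**Figure D4:**
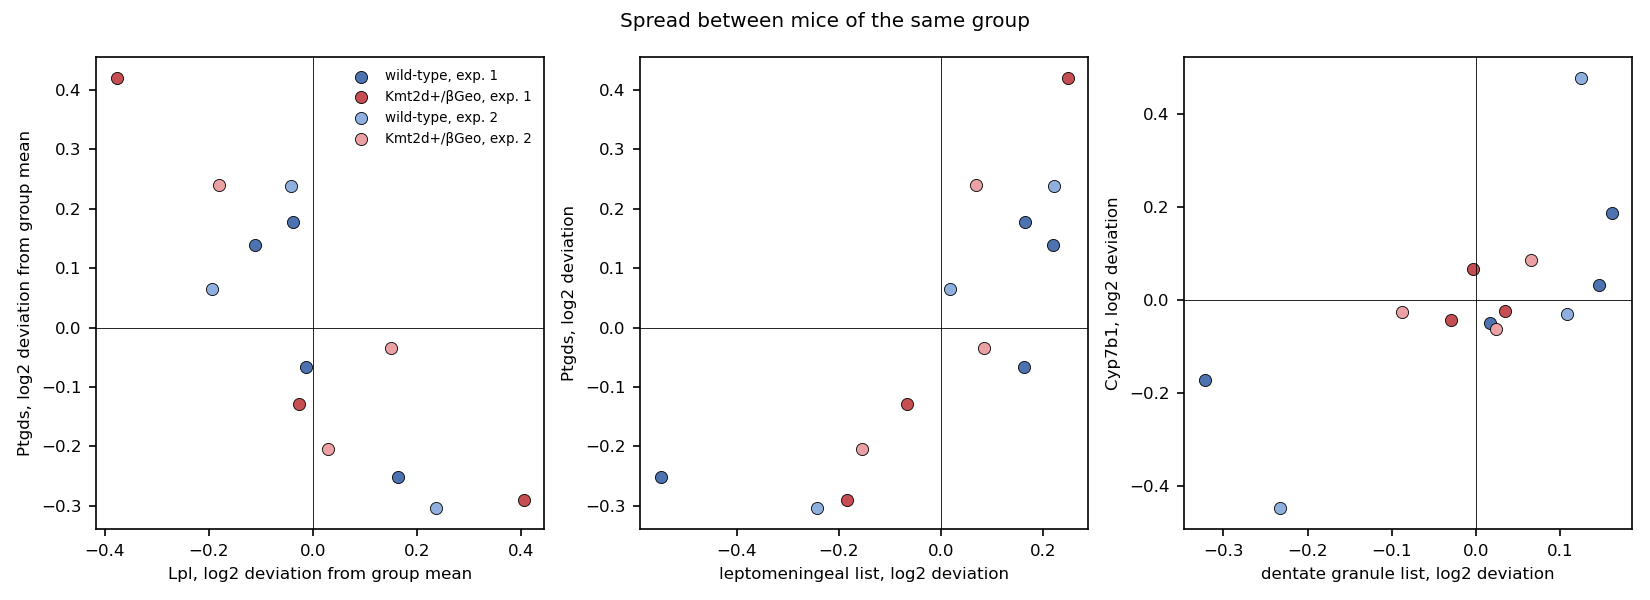
Log2 deviations of 13 mice from their group means: Ptgds against Lpl (left), Ptgds against the mean of 18 leptomeningeal and fibroblast genes (middle) and Cyp7b1 against the mean of 14 dentate granule cell genes (right); colours give the group. Ptgds declines as Lpl increases (r = -0.85), and the other panels slope upwards (r = 0.81 and 0.72).

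Among all genes, those whose deviations within groups were most like the members' were Olfr837 (r = 0.899 over 13 mice) and Fbxw15 (0.883) for Lpl, Matn1 (0.958) and Cnih1 (0.945) for Angptl4, and Dok4 (0.918) and Snhg15 (0.916) for Lcat. For Cyp7b1 they were Tmsb4x (0.966) and H3f3a (0.953), for Ptgds Adra1b (0.986) and Aebp1 (0.894), for Alox8 Tssc4 (0.975) and Eif3k (0.960), and for Akr1c14 Gna13 (0.927) and Amt (0.906). With so few mice such values are common: the best match of any gene had a median r of 0.952, and 90% of genes lay between 0.904 and 0.981. Some matches held and others changed. Adra1b stayed first for Ptgds and Tssc4 for Alox8, both without wild-type replicate 3 of experiment 1 (0.987 and 0.974) and with centred arrays (0.973 and 0.979). Without wild-type replicate 3 of experiment 1 the matches of Lcat were Paqr9 (0.953) and Pla2g12a (0.936). Those of Angptl4 were then Cnih1 (0.963) and Lexm (0.957), and Olfr837 was at 0.909 with Lpl. With centred arrays Lpl and Fbxw15 had r = 0.73.

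The members' pathways were read from 7 lists of 164 genes. Of the 157 genes that are no members, 137 were measured, 64 above and 73 below 0 in the genotype comparison, with a median of -0.007. None passed (limma; 0% of all genes did), and 7 had an unadjusted p under 0.05, or about the share of all genes (5.25%). The medians of the 7 lists ran from -0.042 to 0.039.

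Around lipoprotein lipase 17 other genes were measured, 8 above and 9 below 0. Lowest p belonged to Apoc1, an apolipoprotein that restrains the lipase (-0.21 ± 0.07; limma adjusted p = 0.795), and the endothelial lipase Lipg (0.13 ± 0.07; 0.934). Gpihbp1, which carries lipoprotein lipase to the capillary surface, differed by -0.03 ± 0.11 between genotypes. It rose 1.73-fold from experiment 1 to 2 (adjusted p = 7.84e-06), whereas the lysosomal lipase Lipa fell 4.71-fold (9.51e-11). The 24 other target genes of the PPAR receptors, a group that Lpl and Angptl4 belong to, had 10 above and 14 below 0 in the genotype comparison. Plin4, a lipid droplet protein (-0.22 ± 0.10; adjusted p = 0.934), and the carnitine carrier Slc25a20 (0.14 ± 0.07; 0.934) had the lowest p. Between the experiments Plin5 rose 1.70-fold (adjusted p = 1.8e-07) and the fatty acid binding protein Fabp7 fell 4.62-fold (2.98e-12).

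Of the 17 other genes of cholesterol esterification and high density lipoprotein, 6 were above and 11 below 0. The sterol exporter Abcg1 (-0.15 ± 0.06; limma adjusted p = 0.826) and the lipocalin Apod (-0.22 ± 0.09; 0.848) had the lowest p, both with the sign opposite to that of Lcat. Between the experiments Apoa2 rose 1.58-fold (adjusted p = 8.39e-06) and the cholesterol ester hydrolase Nceh1 fell 4.74-fold (1.99e-13). Among 17 oxysterol and bile acid genes 6 were above and 11 below 0, with Scp2, which carries sterols (0.14 ± 0.06; 0.934), and Baat (-0.14 ± 0.07; 0.934) lowest in p. The brain's cholesterol hydroxylase Cyp46a1 differed by -0.06 ± 0.09 between genotypes and fell 1.84-fold between the experiments (adjusted p = 1.5e-07). Cyp7a1, the bile acid enzyme of liver, had the largest call upwards in this list, but its group means of 3.72 to 4.33 are so dim that no fold is given.

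In the prostaglandin list 15 of 23 other genes were above 0 and 8 below. Ptgs2, the inducible cyclooxygenase that makes the substrate of Ptgds, had the largest difference of all 137 genes, at 0.38 ± 0.09 (limma adjusted p = 0.516). Its means were 10.02 ± 0.11 (SD, n = 4) in wild-type and 10.50 ± 0.18 (SD, n = 3) in heterozygous mice of experiment 1, and 8.52 ± 0.17 and 8.79 ± 0.27 (SD, n = 3 each) in experiment 2. The sign was thus opposite to that of Ptgds. Ptgdr, a receptor of prostaglandin D2, differed by 0.16 ± 0.07 (0.934). Between the experiments the prostacyclin receptor Ptgir rose 1.65-fold (adjusted p = 3.75e-08) and Ptges3, a cochaperone also named as a prostaglandin E synthase, fell 6.85-fold (2.32e-13).

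Of the 18 other lipoxygenase and leukotriene genes 8 were above and 10 below 0. Leukotriene C4 synthase, Ltc4s, lay furthest below 0 (-0.37 ± 0.13; limma adjusted p = 0.815), opposite in sign to Alox8, and its wild-type mice of experiment 1 spread with an SD of 0.44 (n = 4). Alox12e differed by 0.12 ± 0.06 (0.934). Between the experiments Mgst3 rose 4.75-fold (5.44e-11) and Alox12b fell 2.58-fold (8.39e-06). Among 23 other neurosteroid and aldo-keto reductase genes 13 were above and 10 below 0 and none had an unadjusted p under 0.05. The steroid hydroxylase Cyp11b1 (-0.14 ± 0.07; 0.934) and the sulfotransferase Sult1a1 (-0.15 ± 0.08; 0.934) were lowest in p. In this list 18 genes rose and 2 fell between the experiments, where 41.8% of all genes rose and 35.4% fell. The count depended on the scaling, with 5 up and 4 down when arrays were centred and 8 and 4 after quantile normalization. Of the 10 genes outside the dimmest 30%, 6 rose and 2 fell. Ferredoxin Fdx1 rose 3.46-fold (limma adjusted p = 7.74e-11) and the reductase Srd5a3 fell 2.26-fold (2.83e-11). Over all 137 pathway genes 62 rose and 43 fell, near the shares of all genes just given, against 32 and 61 when arrays were centred and 34 and 54 after quantile normalization.

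**Figure D5:**
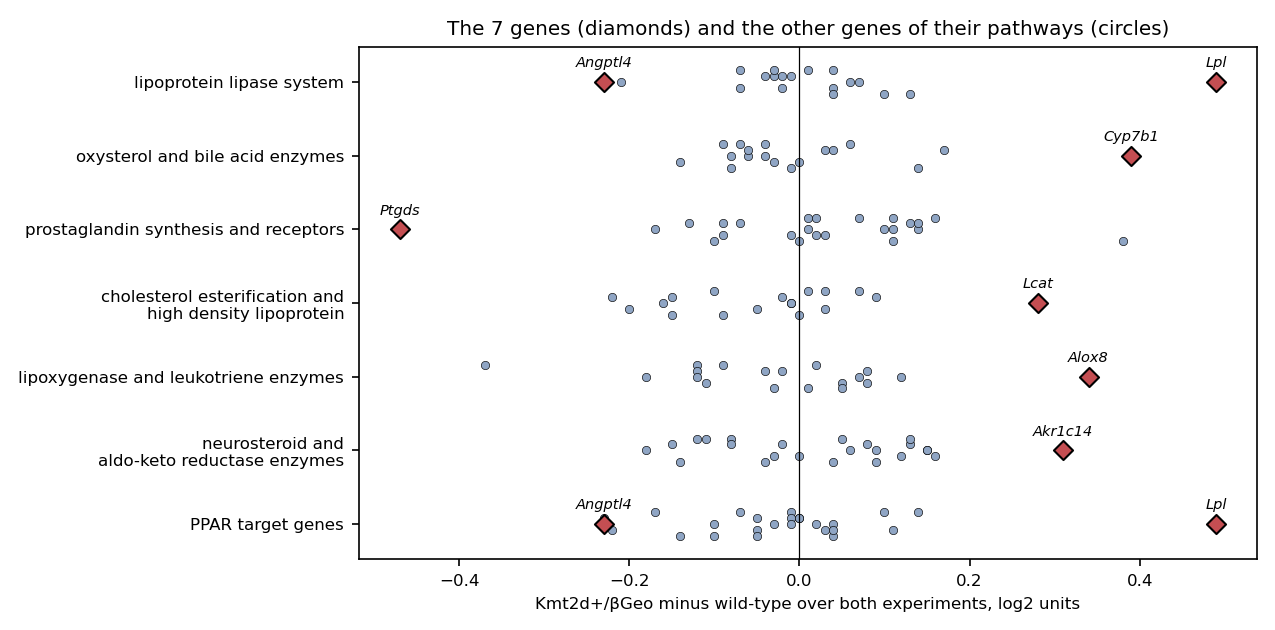
Genotype difference over both experiments in log2 units (horizontal axis) for the genes of 7 pathway lists (rows); circles are the other measured genes and diamonds the 7 chosen genes. The circles lie between -0.37 (Ltc4s) and 0.38 (Ptgs2) with list medians near 0.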

How the data were processed

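The deposited table holds log2 intensities of 35556 probe sets on 13 arrays, made by the authors with RMA in oligo, per the submitters' processing notes. The version of oligo, the build and whether both experiments shared 1 normalization were not stated in those notes. Genes were named from the platform annotation for the 21789 probe sets with 1 symbol (1621 have several, 12146 are not listed). The probe set with the highest mean stood for a gene, giving 19938 genes. Differences were fitted with limma 3.58.1 in R 4.3.3, with genotype and experiment as terms or with 4 groups, and Benjamini-Hochberg adjustment over all genes (threshold 0.05); the fit was tested on simulated data. Correlations used deviations from group means and all 5184 pairings within groups. The labels do not say more of replicates than that each is a mouse, and their number limits the precision. The 7 genes and the pathway and marker lists were chosen with earlier results of these data known. Genes named beside the members were, per pathway list, the 2 of lowest genotype p and the largest called rise and fall between experiments, and per member the 2 most alike genes. Alternatives covered probe set choice, dim genes, scaling, array weights, the replicate number as a block and single arrays.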

Additional observations from a re-analysis of the deposited data

Results flagged for a closer look

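Of 20 values checked in the group of 4 wild-type mice of experiment 1, 5 had a mouse far from the others, and chance alone gives about 1 in 20. Akr1c14 was 5.85 log2 units in replicate 1 against 5.43 to 5.49. The leptomeningeal list, as a mean deviation, was -0.45 in replicate 2 against 0.26 to 0.31, and the striatal list was 2.25 there against -0.08 to -0.04. In replicate 3 the sex-linked list was 1.36 against -0.26 to -0.18, and the CA1 and CA3 list was 0.29 against 0.21 to 0.23.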

How the results depend on the processing

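Over the alternatives the genotype differences kept their sign for all 7 genes, from 0.36 to 0.59 for Lpl, -0.27 to -0.18 for Angptl4, 0.26 to 0.33 for Lcat, 0.30 to 0.49 for Cyp7b1, -0.57 to -0.40 for Ptgds, 0.31 to 0.41 for Alox8 and 0.24 to 0.39 for Akr1c14. Akr1c14 was left out by both filters on dim genes and Angptl4 by the stricter one. Genes called for genotype numbered 21 with array weights and 0 to 2 with single arrays left out (2 without wild-type replicate 1 of experiment 2, 1 without wild-type replicate 2 of experiment 1 or heterozygous replicate 1 of experiment 2). Between the experiments 26086 probe sets were called when every probe set was tested (22823 in wild-type and 20593 in heterozygous mice), and 8020 genes with the lowest 50% left out (7399 and 7109), where fewer genes were tested. Pathway genes called higher numbered 29 and 12 with the lowest 30% and 50% left out, 32 with centring and 34 with quantile normalization. Lcat was at -0.32 with centring and 0.18 with quantile normalization, and the cause was not tested. Angptl4 passed with array weights (0.17; limma adjusted p = 0.0276), with 3 arrays left out together (0.20; 0.0323) and without wild-type replicate 3 of experiment 1 (0.0495), wild-type replicate 2 (0.0265) or heterozygous replicate 3 (0.0229) of experiment 2, with values from 0.11 to 0.19 over single arrays left out. Members without overlap in experiment 2 numbered 4 with 3 arrays left out together, and 2 to 4 with single arrays left out. The 3 arrays were wild-type replicates 2 and 3 of experiment 1 and heterozygous replicate 3 of experiment 2. Fewer mice make a lack of overlap easier for any gene, and the share of all genes was not counted there, so nothing is read from these counts. Deviations of same-numbered mice of the 2 genotypes correlated at -0.23 to 0.22. With so few mice per group these values cannot tell whether the numbers pair mice. With the replicate number as a block, 7947 genes were called higher and 6876 lower between the experiments and 0 for genotype. The marker lists with arrays left out, and the neurosteroid list under other scalings and filters, were added after seeing the data.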

Other observations

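Of the marker lists not described above, none had a gene called for genotype (limma adjusted p). Above and below 0 stood 2 and 10 of the myelin genes (median -0.044), 6 and 7 of the microglial genes (-0.017), 7 and 6 of the endothelial genes (0.039) and 2 and 12 of the ependymal genes (-0.113). The ependymal mean deviation was 0.21 to 0.43 in wild-type and -0.18 to 0.04 in heterozygous mice of experiment 1. In experiment 2 it was -0.40 to -0.15 against -0.20 to 0.00, so the heterozygous range lay higher there. The myelin list had 0.20 to 0.39 against -0.25 to 0.11 in experiment 1, and -0.73 to 0.06 against -0.24 to 0.02 in experiment 2. All 12 striatal genes were below 0 (-0.359), which rests on wild-type replicate 2 of experiment 1: without it 8 of 12 were below 0 and the median was -0.014. Further, 3 of 16 glucocorticoid-induced genes (-0.074) and 3 of 16 clock genes (-0.124) were above 0. Of 4 sex-linked genes 1 was above 0 (-0.453), which rests on wild-type replicate 3 of experiment 1: without it 2 were above 0 and the median was 0.003. Without heterozygous replicate 3 of experiment 1 the myelin median was 0.038, and without wild-type replicate 1 of experiment 2 it was -0.176. Cyp7b1 deviated against the myelin list with r = -0.84 over 13 mice (exact permutation p = 0.0141; rho -0.64, exact p = 0.0428). It did not pass over the 84 pairs (adjusted p = 0.272, 0.596 for rho) and was -0.44 without the 2 arrays farthest on the Cyp7b1 axis.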
